A study of Mus musculus with 12 samples.

Results

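Messenger RNAs that APOBEC1 has been reported to edit in their 3′ untranslated regions were followed in liver of A1cf -/- mice (KO) and of wild-type mice (WT). They are 10 genes, taken by gene name from 46882 names in the count table: Atp6ap2, Tmem30a, App, Cd36, Clic5, Rnf128, Usp25, Dpyd, Aldh6a1 and Sh3bgrl. All 10 were among the 13706 genes abundant enough to be tested. They were chosen by reported C-to-U sites other than Apob and with their measured KO against WT fold changes in these same libraries known, so those fold changes are given as a description. How many of the 10 were past the threshold used for all genes is stated beside the share of all genes and is no test of the 10. The libraries are 6 KO and 6 WT, each from flash-frozen liver of a C57BL/6 mouse of 6 to 8 weeks, and the series describes them as biological replicates. The KO label reads A1CF -/- and the WT label reads wild-type; the allele, the deleted exons and the animals' sex are not given in the sources used here. Each library is named by its genotype and the number in its title.

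APOBEC1 is a cytidine deaminase that converts single cytidines of nuclear RNA to uridine. In its best known substrate, Apob, editing turns a glutamine codon into a stop codon, and the shorter protein is secreted by the intestine of mammals and by the liver of mice and rats. The deaminase acts with RNA-binding cofactors, A1CF (the APOBEC1 complementation factor) and RBM47, and the edited cytidine of Apob is followed by a stretch called the mooring sequence. Sites in other transcripts lie mostly in A+U-rich stretches of the 3′ untranslated region (3′ UTR), where editing does not alter the protein. The deposited table holds counts per gene and no base calls, so editing itself was not measured.

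The Apob site was located first, because it defines the motif looked for in the other transcripts. The edited cytidine lies on chromosome 12 at 8008054 (mm10, plus strand), in exon 26 of 29 and in codon 2179 of 4505, and it stands 5 positions before the first base of the mooring sequence TGATCAGTATA. The 11 bases of that sequence were compared with every position of the longest annotated 3′ UTR of each gene (GENCODE M21 on the same build). Only the sense strand, that of the transcript itself, was read, and the best position in each was kept. Capitals mark the 11 bases set against the mooring sequence, with the flanks in lower case. The Apob stretch spans chr12:8008049-8008078. Those shown from 3′ UTRs are the 6 with at most 2 mismatches, and that of Atp6ap2, whose level differed most between the genotypes in the downward direction. They lie at chrX:139672470-139672499 (Rnf128, plus strand), chr16:84954842-84954871 (App, minus strand), chrX:109160785-109160814 (Sh3bgrl, plus strand), chr17:44277901-44277930 (Clic5, plus strand), chr3:119432689-119432718 (Dpyd, plus strand), chr12:84431340-84431369 (Aldh6a1, minus strand) and chrX:12616428-12616457 (Atp6ap2, plus strand).
Apob: cgatacaattTGATCAGTATAttaaagata
Rnf128: ctgaattggtTGATCAGTATAttagtgaca
App: attcttttccTGATCACTATGcattttgaa
Sh3bgrl: gcacagccagTGATCAAAATAgctggcttc
Clic5: gtcttaacctTGATATGTATAtggtttacc
Dpyd: ctttggatatTGATCAGTGTTtttccccat
Aldh6a1: tactgtgctcTGTTCTGTATAgccatgtgt
Atp6ap2: gcaagtttggTGATCCGTGTGgtttagtag

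Rnf128 held all 11 bases of the mooring sequence, 612 bases after its stop codon in a 3′ UTR of 1277 bases. The nearest cytidine before it lay 10 bases upstream, outside the window of 4 to 8 bases in which a cytidine was looked for, and the closest match of Rnf128 with a cytidine in that window had 3 mismatches. Among 12005 tested genes with an annotated 3′ UTR, 5 held the 11 bases (0.0416%), and these were Rnf128, Intu, Rictor, Trim23 and Zfp964. The other 4 had a cytidine 4 to 8 bases before the match. Within the first 1277 bases of 3′ UTRs at least that long, the exact sequence stood in 0.0357% of genes.

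The other 9 transcripts matched less closely, with 2 mismatches in App, Sh3bgrl, Clic5, Dpyd and Aldh6a1, and 3 in Atp6ap2, Tmem30a, Cd36 and Usp25. Matches of that quality were common. Over the first bases of 3′ UTRs at least as long, taken to the same length, a match at least as good stood in 15.3% of genes for Dpyd, 20.7% for Aldh6a1, 26.7% for Sh3bgrl, 48.9% for Clic5, 59.6% for App, 73.2% for Atp6ap2, 74.2% for Usp25, 84.6% for Cd36 and 92.6% for Tmem30a. With up to 3 mismatches and a cytidine 4 to 8 bases upstream, 9 of the 10 transcripts had a match, and with up to 2 mismatches 4 had one (App, Sh3bgrl, Clic5 and Aldh6a1). Such matches were also common among all genes at the same lengths. With up to 3 mismatches they stood in 60.6% for Usp25, 62.4% for Dpyd, 62.7% for Rnf128, 73.1% for Cd36 and 84.7% for Tmem30a. With up to 2 they stood in 13.9% for Aldh6a1, 17.4% for Sh3bgrl, 33.4% for Clic5 and 41.3% for App. The 3′ UTRs of all 10 were longer than the median of 1164 bases (1176 to 5646) and richer in A+T than the median of 55.4% (56.5 to 67.9%). A match describes the letters only, and the positions of the reported editing sites were not used here. For App, 891 of the 5646 bases lie in the exons counted in the deposited table, which follows an earlier annotation, with 2 of its 13 matches of up to 3 mismatches, the printed one among them. For the other 9 transcripts 99.7 to 100% of the 3′ UTR and all matches lie in counted exons.

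**Figure D1:**
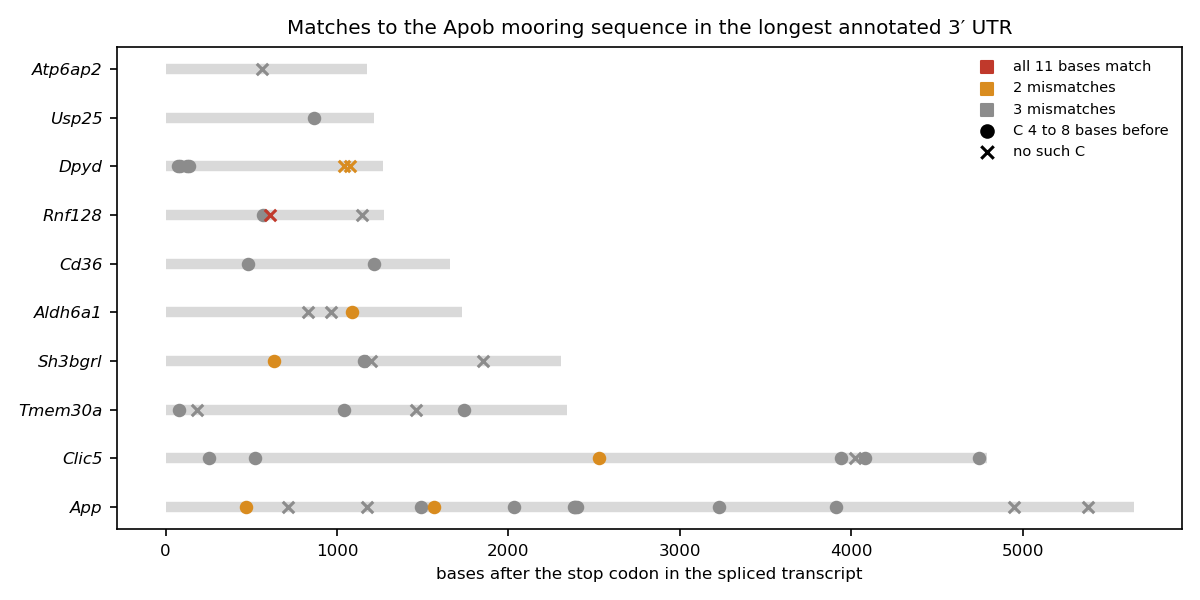
Grey bars show the longest annotated 3′ UTR of each of the 10 transcripts in bases after the stop codon, and marks show where it matches the 11 bases of the Apob mooring sequence with up to 3 mismatches (colour) and with or without a cytidine 4 to 8 bases before (circle or cross). The single exact match is in Rnf128, 612 bases after the stop codon, and App has the longest 3′ UTR, 5646 bases, of which 15.8% lies in the exons counted for App.

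Some facts of the whole series bear on these genes. Total counts ran from 22129092 to 51082317 in KO and from 25898171 to 40597491 in WT libraries. All 8 hepatocyte markers were detected in every library, at a summed 78531 to 98494 CPM (counts scaled to library size and composition) in KO and 86037 to 107707 CPM in WT livers, so the labelled tissue was borne out. Saa1, an acute phase protein of hepatocytes, stood at 1840 to 17489 CPM in KO 588, KO 591 and KO 602 and at 6920 to 8337 CPM in WT 590 and WT 601, against 20.8 to 83.8 CPM in the other 7 libraries. Markers of cells other than hepatocytes differed in direction by cell type. The 12 Kupffer cell markers summed to 141 to 513 CPM in KO and 139 to 238 CPM in WT, the 10 sinusoidal endothelial markers to 260 to 305 and 170 to 341 CPM, and the 11 stellate cell markers to 368 to 516 and 224 to 388 CPM. Every tested gene of these 3 lists lay above 0 in log2 fold change, 3 past an adjusted p of 0.05 (Stab2, Pdgfrb and Lrat), and no marker on them was at 0 in any library. The 7 tested markers of T, B and myeloid cells also lay above 0 (10.5 to 28.5 CPM in KO and 6.34 to 13.5 CPM in WT for the whole list). Of the tested cholangiocyte markers 4 of 5 lay below 0 (median −0.14), and of the red cell markers 3 of 5 (median −0.09), with 0 past the threshold in these 3 lists. Of the 8 hepatocyte markers 7 lay below 0 (median −0.10), also with 0 past the threshold. In bulk liver, fewer cells of a type and less RNA per cell cannot be told apart.

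The targeted transcript and its partners in editing were read before the reported targets. A1cf stood at 8.20 to 12.6 CPM in KO livers and at 47.9 to 53.8 CPM in WT livers, so that KO livers averaged 20.9% of the WT level (log2 fold change −2.26 ± 0.09, SE). Its adjusted p, by Benjamini and Hochberg over all tested genes, was 1.14e-08 in edgeR. The groups were far apart, and fragments over the locus remained in KO. Apobec1, the deaminase, averaged 11.2 ± 2.15 CPM in KO and 10.6 ± 1.23 CPM in WT livers (SD, n = 6 each), and Apob averaged 4884 ± 419 and 5202 ± 202 CPM, with log2 fold changes of 0.09 ± 0.12 and −0.09 ± 0.10 (SE) that did not pass. Rbm47, the other cofactor, was higher in KO at 69.6 ± 6.62 CPM, against 56.1 ± 4.07 CPM in WT (0.31 ± 0.08, SE; adjusted p = 0.039, edgeR). It was called in 3 of 12 fits that each left out 1 library, and without the 5 libraries rich in Saa1 the change was 0.21 and did not pass. With the number range as a covariate it was 0.30 (adjusted p = 0.052, edgeR), also not past the threshold.

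Among all 13706 genes, 3.82% passed the adjusted threshold of 0.05, with 2.09% lower and 1.72% higher in KO. Of the 10 transcripts, 2 were past it and lower in KO (Atp6ap2 and Rnf128) and 0 were higher. By direction alone, 6 lay above and 4 below a log2 fold change of 0, with a median of 0.05, against a median of 0.01 over all tested genes. Complete separation of the genotypes was seen in Rnf128 only, and in 3.3% of all tested genes. Since this comparison was known when the genes were listed, nothing is read from these counts.

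**Figure D2:**
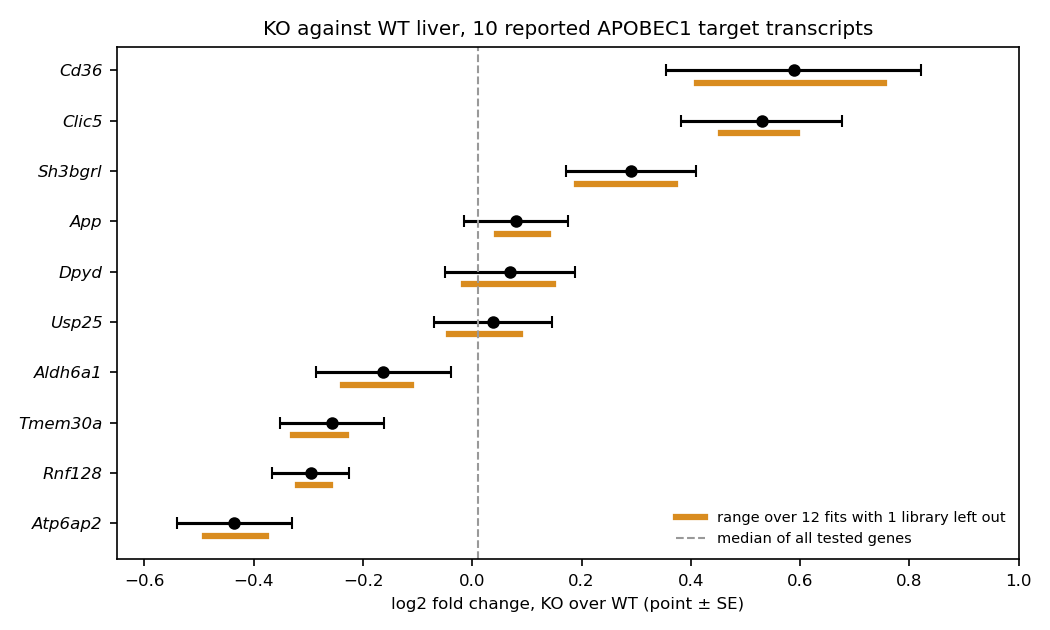
Points give the log2 fold change of each transcript in KO over WT liver (6 libraries each) with its standard error, and orange bars the range over 12 fits that each leave out 1 library. Atp6ap2 (−0.44) and Rnf128 (−0.30) had the lowest values, and Cd36 (0.59) and Clic5 (0.53) the highest, with the widest error in Cd36.

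Atp6ap2 (X:12587801-12617049, plus strand) encodes the prorenin receptor, which is also an accessory subunit of the vacuolar proton pump (V-ATPase). Its level was 24.5 CPM in the lowest, 29.5 CPM at the median and 33.5 CPM in the highest KO library, against 32.0, 39.6 and 47.4 CPM in WT livers. Of the KO libraries, 5 lay below all WT libraries, and the groups overlapped only through KO 602 (33.5 CPM), which exceeded WT 601 (32.0 CPM). KO livers averaged 74.0% of the WT level, a log2 fold change of −0.44 ± 0.10 (SE). The value ran from −0.49 to −0.38 when each library was left out, and Atp6ap2 was past the threshold in 6 of those 12 fits. Numbers in the titles fall into a range of 573 to 602 (5 KO, 3 WT) and one of 776 to 780 (1 KO, 3 WT). WT livers averaged 35.0 CPM in the first range and 43.7 CPM in the second, and the difference in log2 CPM between genotypes was −0.29 within the first and −0.49 within the second, where KO is a single library. With the number range as a covariate the log2 fold change was −0.35.

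Tmem30a (9:79768943-79793507, minus strand) encodes CDC50A, the partner subunit that P4-ATPases need to leave the endoplasmic reticulum and flip phospholipids. It stood at 114, 124 and 137 CPM in KO livers (lowest, median and highest) and at 111, 156 and 161 CPM in WT livers. All 6 KO libraries were below the WT median, while WT 601, at 111 CPM, was the lowest of all 12 libraries and the next WT library was at 146 CPM. The log2 fold change was −0.26 ± 0.10 (SE), and −0.33 without WT 601. Within the number ranges the differences in log2 CPM were −0.17 and −0.21.

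App (16:84954440-85173707, minus strand) encodes the amyloid precursor protein, a membrane protein cleaved by secretases. It ranged over 37.1 to 51.4 CPM in KO (median 48.7) and 38.9 to 52.6 CPM in WT livers (median 43.6). The groups overlapped over nearly their whole range, and the log2 fold change was 0.08 ± 0.10 (SE).

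Cd36 (5:17781690-17888801, minus strand) encodes a scavenger receptor that takes up long-chain fatty acids and oxidised lipoproteins. Levels were 77.7, 99.2 and 172 CPM in KO livers and 45.0, 67.4 and 112 CPM in WT livers (lowest, median and highest). All 6 KO libraries lay above the WT median, but only KO 574 (172 CPM) and KO 588 (126 CPM) exceeded WT 573 (112 CPM). Cd36 was the most variable of the 10 transcripts within a genotype, with a coefficient of variation of 32.7% in KO and 31.7% in WT, against medians of 16.5% and 15.7% over all tested genes. Its log2 fold change of 0.59 ± 0.23 (SE) moved between 0.41, without KO 574, and 0.75, without WT 573. Cd36 is also made by endothelial cells and macrophages, whose marker sums are given above. Within genotypes its log2 CPM correlated with the log2 of the summed Kupffer, sinusoidal endothelial and stellate cell markers at r = 0.17 over the 12 libraries. The part of these cells in its level was not tested.

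Clic5 (17:44188572-44280168, plus strand) encodes a chloride intracellular channel protein that also sits with ezrin at the actin cortex. It was the scarcest of the 10, at 37 to 161 counts in a library. Levels were 1.98, 2.53 and 3.17 CPM in KO livers and 1.52, 1.84 and 2.02 CPM in WT livers. KO 574, at 1.98 CPM, fell within the WT range and the other 5 KO libraries were above every WT library. The log2 fold change was 0.53 ± 0.15 (SE), and 0.39 without the 5 libraries rich in Saa1. Clic5 was not past the threshold in edgeR, while DESeq2 called it higher in KO.

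Rnf128 (X:139563316-139673145, plus strand), also known as GRAIL, encodes a transmembrane ubiquitin ligase of endosomes. This transcript, with the exact mooring sequence printed above, stood at 63.7, 73.5 and 78.7 CPM in KO livers and at 82.1, 88.8 and 97.3 CPM in WT livers (lowest, median and highest). Every KO library was below every WT library, with KO 602 at 78.7 CPM and WT 601 at 82.1 CPM next to each other across the gap. KO livers averaged 81.5% of the WT level, and variation within genotypes was low, at 7.45% in KO and 6.81% in WT. In log2 terms the change was −0.30 ± 0.07 (SE), with −0.32 and −0.31 as the differences in log2 CPM within the 2 number ranges. It lay between −0.32 and −0.26 when 1 library was left out, and Rnf128 was past the threshold in 3 of those 12 fits. The other 4 genes with the exact sequence had log2 fold changes of −0.45 ± 0.16 for Intu, −0.34 ± 0.15 for Trim23, 0.10 ± 0.18 for Zfp964 and 0.17 ± 0.12 for Rictor (SE). All 4 were not past the threshold and their groups overlapped. Intu was scarce, at a mean of 2.01 CPM in KO and 2.75 CPM in WT, as was Zfp964, at 1.35 and 1.26 CPM.

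Usp25 (16:77014069-77116779, plus strand) encodes a deubiquitinating enzyme. KO livers held 20.8 to 29.2 CPM (median 22.1) and WT livers 17.9 to 26.3 CPM (median 23.0). KO 780 stood above the rest of its group, whose next library was at 23.2 CPM, and otherwise the groups overlapped fully. Its log2 fold change was 0.04 ± 0.11 (SE).

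Dpyd (3:118562129-119432924, plus strand) encodes dihydropyrimidine dehydrogenase, the first and rate-limiting enzyme in the breakdown of uracil and thymine. Levels were 362, 492 and 633 CPM in KO livers and 416, 465 and 528 CPM in WT livers. Both ends of the KO range lay outside the WT range, KO 602 below it and KO 780 above it. A log2 fold change of 0.07 ± 0.12 (SE) became −0.02 without KO 780.

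Aldh6a1 (12:84430723-84450950, minus strand) encodes the mitochondrial methylmalonate semialdehyde dehydrogenase, which acts late in the breakdown of valine and of thymine. It stood at 275, 323 and 419 CPM in KO livers and at 297, 381 and 436 CPM in WT livers. KO 591 and KO 602 were below all WT libraries, and KO 574 and KO 780 were above the WT median. The log2 fold change was −0.16 ± 0.12 (SE), with differences in log2 CPM of −0.20 in libraries 573 to 602 and 0.13 in libraries 776 to 780. A gene on the other strand, Ccdc176, overlaps its exons with 364 counts over all libraries, against 125655 for Aldh6a1.

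Sh3bgrl (X:109095365-109197873, plus strand) encodes a small protein with a thioredoxin-like fold, related to the SH3-binding glutamate-rich protein. Levels were 89.5, 106.4 and 146 CPM in KO livers and 77.3, 86.4 and 114 CPM in WT livers. All 6 KO libraries were above the WT median. The highest library of each genotype, KO 602 (146 CPM) and WT 590 (114 CPM), was also the one richest in Saa1 in that genotype. The other libraries rich in Saa1 were not high. KO 591 was the lowest KO library (89.5 CPM), KO 588 stood near the KO median (106.7 CPM) and WT 601 lay below the WT median (85.6 CPM). The log2 fold change of 0.29 ± 0.12 (SE) was 0.19 without KO 602 and 0.37 without WT 590, and 0.31 without all 5 libraries rich in Saa1.

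**Figure D3:**
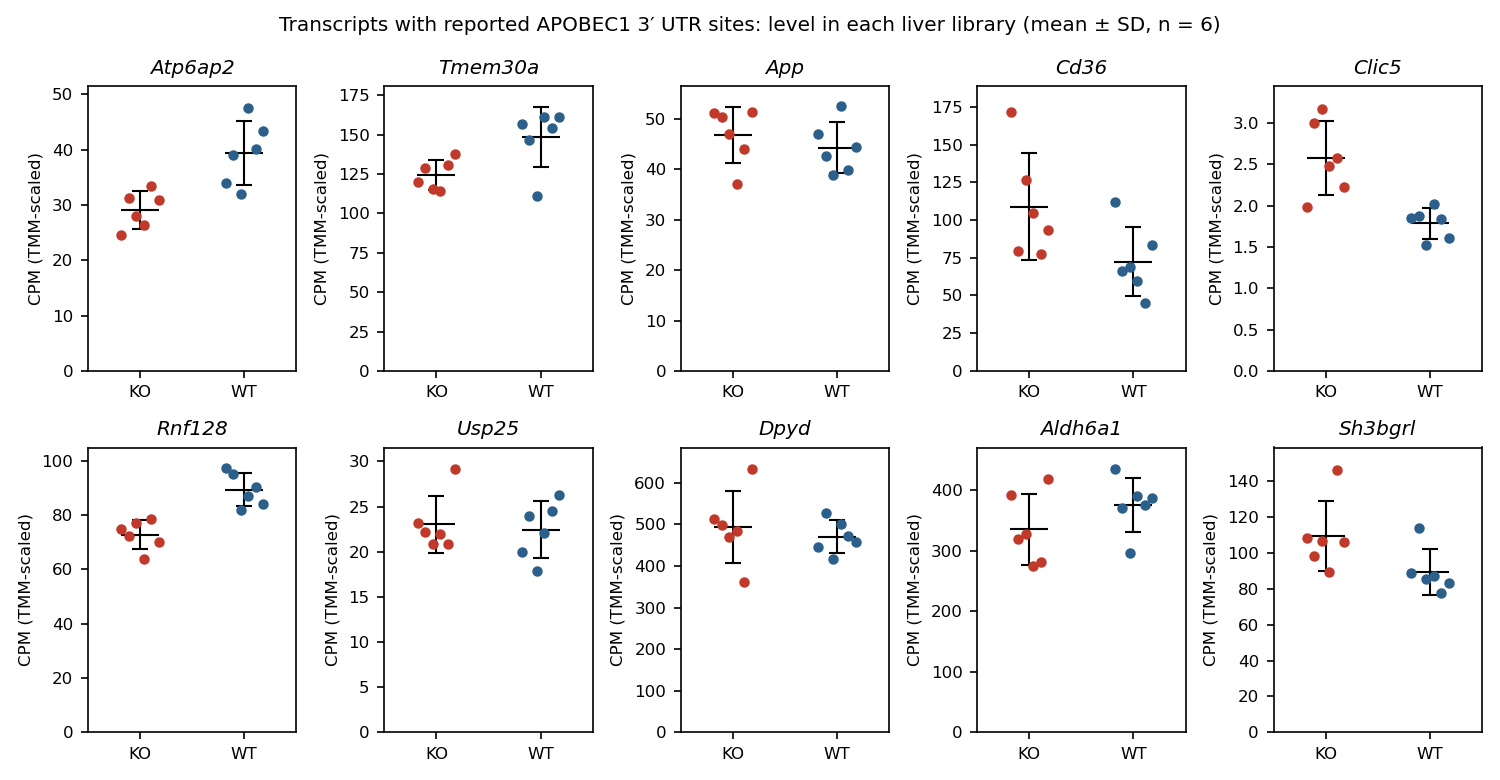
Each point is the level of a transcript in 1 liver library, in CPM, with KO (red) left of WT (blue) and the mean ± SD of 6 libraries in black; all axes start at 0. Rnf128 separates the genotypes, Atp6ap2 overlaps only at KO 602 and WT 601, Clic5 only at KO 574 and WT 776, and the other 7 transcripts overlap in more libraries.

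Levels were also set per kilobase of exon, so that genes could be compared with each other. Aldh6a1 was the most abundant, at a mean of 100.5 CPM per kilobase in KO and 113 in WT livers, above 96.4% and 96.6% of all tested genes. Dpyd followed at 55.5 in KO and 52.9 in WT. Clic5 was last, at 0.438 and 0.304 CPM per kilobase, and Usp25 next to last, at 5.22 and 5.09. Neither overlapped with its neighbour in the order in either genotype.

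The middle of the order was less settled. In KO livers Sh3bgrl (33.1), Cd36 (30.4), Tmem30a (22.02) and Rnf128 (21.03 CPM per kilobase) followed Dpyd, each overlapping the one before it, and in WT livers Dpyd stood clear and the order after it was Sh3bgrl (27.1), Tmem30a (26.3), Rnf128 (25.8) and Cd36 (20.2), with overlap between these neighbours. App and Atp6ap2 changed places, at 14.98 and 11.1 CPM per kilobase in KO and 14.2 and 15.03 in WT livers, and their ranges overlapped in both genotypes. Cd36 thus had rank 4 of the 10 in KO and rank 6 in WT livers.

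**Figure D4:**
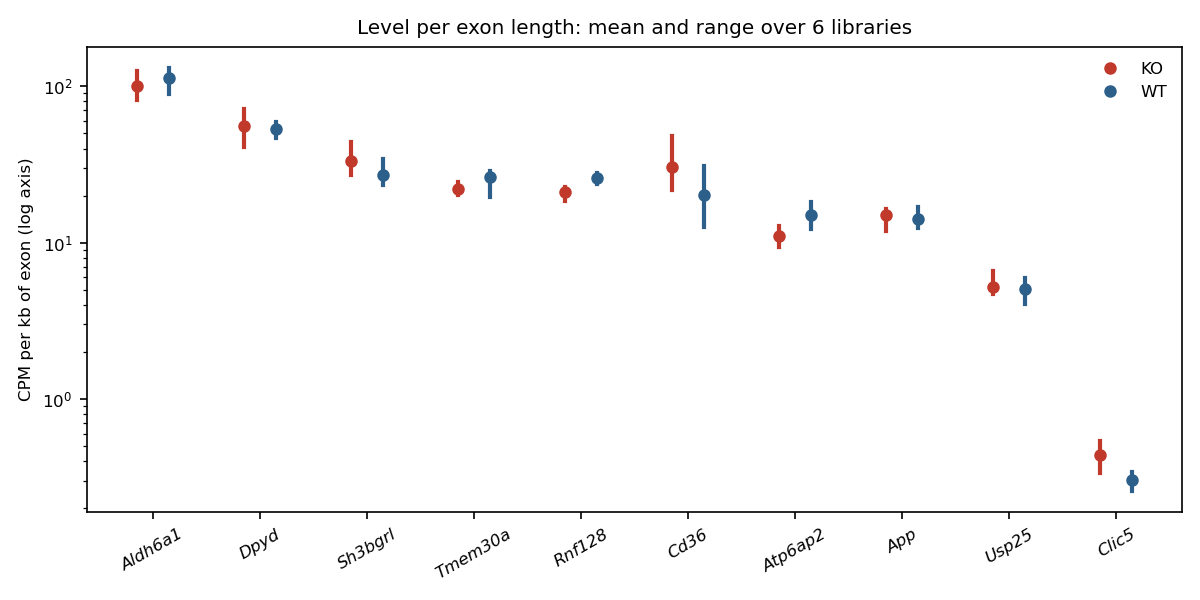
Points give the mean level of each transcript per kilobase of exon on a log axis, and bars the range over 6 libraries, with KO (red) left of WT (blue). Aldh6a1 lies near 100.5 (KO) and 113 (WT) CPM per kilobase and Clic5 near 0.438 and 0.304. The 6 transcripts between Dpyd and Usp25 lie at 11.1 to 33.1 in KO, where Rnf128 stands clear of App, and at 14.2 to 27.1 in WT.

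How the transcripts varied among animals of the same genotype was described by subtracting each genotype's mean from log2 CPM. All genes of a library share its depth and RNA composition. Over the 12 libraries, Aldh6a1 and App moved most alike by Pearson correlation (Pearson r = 0.75, Spearman rho = 0.76). They were followed by Atp6ap2 with Tmem30a (0.72 and 0.71) and Dpyd with Usp25 (0.69 and 0.76). By Spearman correlation, Rnf128 and Sh3bgrl moved most alike (rho = 0.78, r = 0.66). Cd36 and Atp6ap2 ran most strongly in opposite directions, at r = −0.61. Against the log2 of 10 acute phase genes summed, Sh3bgrl stood at r = 0.71, Aldh6a1 at −0.68, Dpyd at −0.57 and Usp25 at −0.51, whereas Atp6ap2 was at −0.03. That sum was 6302 to 78862 CPM in KO and 5757 to 41011 CPM in WT livers. Against the log2 of the summed Kupffer, sinusoidal endothelial and stellate cell markers, r ran from −0.19 (Dpyd) to 0.39 (Atp6ap2). The part of the acute phase state or of other cells in the levels of these transcripts was not tested.

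**Figure D5:**
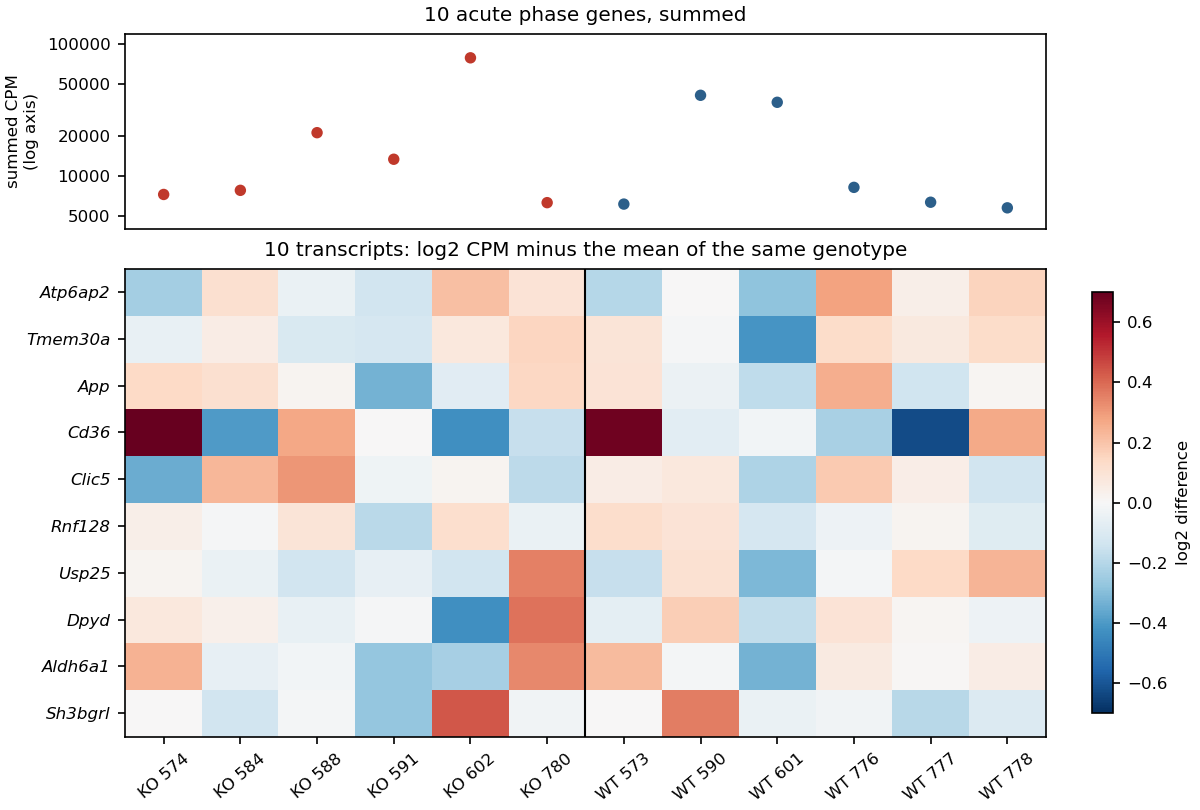
The upper panel gives the summed level of 10 acute phase genes in each library on a log axis, and the lower panel the log2 CPM of each transcript minus the mean of its genotype (red above, blue below), KO libraries left of WT. KO 602 and WT 590, the libraries highest in acute phase genes in their genotypes, are also those where Sh3bgrl is farthest above its mean. In KO 588, KO 591 and WT 601, the other libraries rich in Saa1, Sh3bgrl is near or below its mean.

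The genes nearest in pattern, among 13705 others and on the same scale, were Calm2 (r = 0.91), Sppl2a (0.90) and Casp4 (0.90) for Atp6ap2, Otud1 (0.89), Abca2 (0.84) and Hap1 (0.83) for Rnf128, and Caprin2 (0.88), Mir27b (0.86) and Ephb6 (0.83) for Clic5. With so many genes searched and 12 libraries, these are the highest values found and are given as a description. Of the 9, Casp4 was past the threshold between the genotypes, with a log2 fold change of 0.81.

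Other genes of the pathways in which the 10 transcripts act were read from the same fit, and their shares are to be set against the 3.82% of all tested genes that passed. Of 16 tested genes of the V-ATPase and its accessory proteins, the partners of Atp6ap2, 1 was lower and 1 higher in KO, and 14 lay below 0 in log2 fold change, with a median of −0.04. Atp6v0a1, a membrane-sector subunit, was at 32.4 to 41.2 CPM in KO and 44.6 to 53.6 CPM in WT livers, with complete separation (−0.43 ± 0.07, SE; adjusted p = 0.0063, edgeR). It passed in all 12 leave-one-out fits, but not without the 5 libraries rich in Saa1 (−0.32) or in libraries 573 to 602 alone. Atp6v0e, a small subunit of the same sector, was at 32.9 to 35.9 CPM in KO and 25.8 to 31.4 CPM in WT livers, also separated (0.25 ± 0.06, SE; adjusted p = 0.047, edgeR), and passed in 2 of those 12 fits.

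Of 11 tested phospholipid flippase genes, to which Tmem30a belongs as a partner, 1 was higher and 0 were lower, with a median of 0.00. Atp11a, a P4-ATPase of the plasma membrane, was at 13.1 to 19.8 CPM in KO and 5.42 to 15.3 CPM in WT livers (1.07 ± 0.25, SE; adjusted p = 0.035, edgeR). WT 590 held the 15.3 CPM and the next WT library 8.66 CPM. Without WT 590 the log2 fold change was 1.38, and without the 5 libraries rich in Saa1 it was 1.41, past the threshold in both, though it was called in 2 of the 12 leave-one-out fits.

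In the remaining lists 0 genes were past the threshold. For comparison, 21.2% of all tested genes had an unadjusted p below 0.05 in edgeR, DESeq2 called 8.57% and limma-voom 4.1%. Of 15 genes of fatty acid uptake around Cd36, 6 had an unadjusted p below 0.05 and DESeq2 called 5, limma-voom 0, with a list median of −0.12. Slc27a4, a fatty acid transport protein, was at 32.5 to 42.1 CPM in KO and 40.1 to 52.1 CPM in WT livers (−0.32 ± 0.09, SE), and Got2, which doubles as a fatty acid binding protein of the plasma membrane, at 347 to 426 and 415 to 481 CPM (−0.27 ± 0.08, SE). In both genes 5 KO libraries lay below all WT libraries. Slc27a1, another transport protein of that family, had the largest change of the list, in the other direction, at 76.1 ± 32.1 CPM in KO and 38.4 ± 12.8 CPM in WT livers (SD, n = 6 each; log2 fold change 0.99 ± 0.29, SE), not past the threshold in edgeR but called by DESeq2. It was named after its values were seen.

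Among 14 genes around App (its relatives and secretases), 3 had an unadjusted p below 0.05 and neither DESeq2 nor limma-voom called any (0 each). The smallest p-values there belonged to the γ-secretase subunits Psenen (−0.23) and Aph1a (−0.26). Among 20 genes of valine and other branched-chain amino acid breakdown, around Aldh6a1, 5 were below 0.05 unadjusted and the other tools called 0, with Dbt (0.43) and Acadsb (0.24) foremost. Of 8 genes of pyrimidine breakdown, around Dpyd, 1 was below 0.05 unadjusted and 0 were called by the other tools; the foremost were Upp1 (0.39) and Agxt2 (−0.27).

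The 8 tested relatives of Rnf128 and Usp25 gave 2 genes below 0.05 unadjusted, 1 call by DESeq2 and 0 by limma-voom, with Rnf130 (−0.23) and Otub1 (−0.18) foremost. The CLIC family (3 tested) and the SH3BGR family (2 tested) gave 0 genes below 0.05 unadjusted and 0 calls by either tool. Clic4, the abundant liver member, was at 49.9 to 61.6 CPM in KO and 44.1 to 62.7 CPM in WT livers, and its log2 fold change was 0.07 ± 0.09 (SE).

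A wider list of 19 other transcripts reported as edited includes Apob, and 18 of the 19 were tested. None of them passed, with 3 below 0.05 unadjusted, 1 called by DESeq2 and 0 by limma-voom, and the median log2 fold change was −0.07, Apob counted in each. Hprt, the purine salvage enzyme, came nearest, at 40.1 to 58.9 CPM in KO and 54.7 to 83.9 CPM in WT livers (−0.47 ± 0.13, SE; adjusted p = 0.061, edgeR). Its WT mean was 58.2 CPM in libraries 573 to 602 and 82.1 CPM in libraries 776 to 778. In libraries 573 to 602 alone its log2 fold change was −0.25. Gramd1c, a sterol transfer protein, was at 16.5 to 30.5 CPM in KO and 26.1 to 38.3 CPM in WT livers (−0.42 ± 0.15, SE). In this group 17 genes had an annotated 3′ UTR to search. The closest matches to the mooring sequence were in B2m (448 bases of 3′ UTR) and Ptpn3 (3444 bases), each with 1 mismatch. That in Ptpn3 had a cytidine 4 to 8 bases before it, and the closest match of B2m with such a cytidine had 3 mismatches. The share of all genes with matches this close at these lengths was not computed.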

How the data were processed

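Raw counts of fragments per gene name were deposited by the authors in 1 table, made with featureCounts 1.5.0-p2 on exons of GENCODE M8, per the file headers. No strand option is set there, so reads of overlapping genes on opposite strands cannot be told apart. Alignment to mm10 with STAR is named in the submitters' processing notes, without a version. The deposited table also gives another value per gene, its exonic length, used here for levels per kilobase.

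The counts were tested with edgeR 4.0.16 under R 4.3.3 (filterByExpr with a minimum count of 10, TMM scaling, robust quasi-likelihood test with genotype as the only term, limma 3.58.1 underneath). The Benjamini-Hochberg adjustment covered 13706 genes, and the threshold was 0.05. Standard errors were taken as the absolute log2 fold change over the root of F. TMM-scaled CPM are given, and log2 CPM used a prior count of 2. The fit was tested on data simulated for 6 KO against 6 WT libraries, with 13706 genes of which 200 were changed. It recovered 40% of genes changed 1.5-fold, 86% at 2-fold, 97.9% at 4-fold and 100% at 8-fold, and 5 of its 162 calls (3.09%) fell on unchanged genes. Genes were simulated independently, without a state shared by some libraries such as the acute phase, so these shares need not hold for the livers. A count of 0 allows up to 3 counts, or 0.0590 to 0.131 CPM by library, for counting error only. Replicates of a genotype differed beyond counting noise.

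Alternatives were RLE, library totals, 2 other filters, DESeq2 1.42.0, limma-voom, the number range as a covariate or a limit, leaving out each library, and leaving out the deepest of each genotype. Leaving out the 5 libraries with Saa1 above 1000 CPM was added after seeing the data. The 10 transcripts and all gene lists were chosen with earlier results of these data known. Named genes are the 10, A1cf, Apobec1, Rbm47 and Apob, up to 4 past the threshold per list (smallest p first), otherwise at most 2, and the 3 nearest in pattern to Atp6ap2, Rnf128 and Clic5. The other 4 genes with the exact mooring sequence, B2m, Ptpn3 and Slc27a1 were named after their values were seen. UTRs and bases came from GENCODE M21 transcripts on the same build, matched by symbol for 12005 of 13706 genes (87.6%).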

Additional observations from a re-analysis of the deposited data

Results flagged for a closer look

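A library far from the rest of its genotype (gap to the nearest library over the group's range above 0.625, Dixon's 95% value for 6) was found in 12 of 96 groups examined, and in 4 of the 20 groups of the 10 transcripts. For independent groups of normally distributed values, about 1 in 20 would be flagged. The groups here share the same 12 libraries, and some genes were named by their p-values, so these counts are no test against that share. Among the 10 transcripts the flagged values were Usp25 in KO 780 (29.2 CPM, next library 23.2), Sh3bgrl in KO 602 (146 CPM, next 108), Sh3bgrl in WT 590 (114 CPM, next 88.9) and Tmem30a in WT 601 (111 CPM, next 146). In the pathway lists they were Got2 in KO 574 (426 CPM), Atp11a in WT 590 (15.3 CPM) and Psenen in WT 601 (36.1 CPM). Among marker and acute phase genes they were Spp1 (505 CPM), Steap4 (245 CPM) and Saa3 (1371 CPM) in KO 602, Alas2 in KO 588 (76.9 CPM) and Saa3 in WT 590 (309 CPM).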

How the results depend on the processing

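No paired analysis was made because the labels give no pairing of the libraries. Of 523 genes called, DESeq2 gave 1175, libraries 573 to 602 alone 57, leaving out KO 588 and WT 573 gave 206, and leaving out the 5 libraries rich in Saa1 (added after seeing the data) 240, while leaving out each library gave 266 to 638. With library totals as the only scaling, 266 were higher and 139 lower in KO, against 236 and 287. Of the 10 transcripts, 2 were called, against 0 with library totals, 1 without a low-count filter and 1 with the number range as a covariate (Rnf128, with Atp6ap2 lost). DESeq2, which called 8.57% of all tested genes, called 3, adding Clic5 as higher in KO. There were 0 in libraries 573 to 602, without KO 588 and WT 573, and without the 5 libraries, and leaving out each library gave 0 to 3. Of the 3 genes called in the pathway lists, DESeq2 gave 11, libraries 573 to 602 gave 0, leaving out KO 588 and WT 573 gave 1, and leaving out each library 1 to 5. Some of these fits held fewer libraries, and the cause of the shifts was not tested. No log2 fold change of the 10 moved by more than the spread between replicates, and 0 called values reversed. Requiring at most 2 mismatches left 4 of 9 transcripts with a mooring match and an upstream cytidine. At the lengths of those 4, such a match stood in 13.9 to 41.3% of genes. Depth limits Clic5 most, at 37 to 161 counts.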
